A study of Mus musculus with 15 samples.

Results

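Hearts loaded with pressure for 3 days were compared with sham-operated hearts among the mice filed under the genotype Cre. Transverse aortic constriction (TAC) narrows the aorta by surgery, so that the left ventricle pumps against a higher pressure, and the sham operation leaves the aorta open. The samples were chosen by title, which gives genotype and operation. No measured value is part of that rule, but earlier results of these data were known when the hearts were chosen. They were 3 TAC and 4 sham hearts, 7 of the 15 samples of the series. All were male C57BL6 mice aged 10 wk with the genotype MHC-cre, a Cre recombinase transgene under a myosin heavy chain promoter, which drives Cre in heart muscle cells. The other 8 samples, 4 sham and 4 TAC, were filed as KO with the genotype MHC-cre-klf4, in which Cre is meant to delete Klf4, a zinc-finger transcription factor, in those cells. They have the same sex, strain, age, operations and time. Total RNA of the apex of the ventricle went on Agilent mouse arrays of 1 colour, Cy3, and by the labels each array holds 1 heart. The p-values therefore measure a spread between hearts. That spread was taken over the 14 arrays fitted together, hearts filed as KO included, and not over these 7 hearts alone.

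Both labels of these hearts have a conflict. The series also holds a table of processed values, and 14 of the 15 scanner files were found in it. Each of the 14 carried the opposite genotype in that table, with its operation unchanged, so the hearts are called filed as Cre, and which genotype they carried is not settled. A description field names the other operation for 3 of the 7 hearts, namely sham replicates 2 and 3 and TAC replicate 2. Grouped by that field, limma called 0 features and 219 had an unadjusted p under 0.05, against 5839 and 9524 when grouped by title. Levels are log2 processed signals relative to the 75th percentile of their array, so that 0 is that percentile. The targeted gene did not separate the genotypes on this scale. Klf4 read 3.87, 4.04, 3.72 and 4.30 in sham replicates 1 to 4 and 4.25, 3.99 and 4.16 in TAC replicates 1 to 3. The hearts filed as KO spanned 3.26 to 4.49 after sham and 4.23 to 4.50 after TAC on the 3 arrays of the fit, with 3.52 on KO TAC replicate 4. The ranges of all 4 groups overlapped, and TAC changed Klf4 by 0.07 ± 0.19 (SE; limma adjusted p = 0.819) in hearts filed as Cre. The sources used here do not say where the probe lies, and a probe outside the deleted stretch would check nothing.

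On the 7 arrays the median processed signal was 103.1 to 147.1, and 65.6% to 75.2% of probes were well above background. Each array had a median correlation of 0.971 to 0.982 with the others, and no probe was saturated. The apex carried its heart muscle markers. All 15 genes of that list, among them Myh6, Mb and Ckm, were well above background on every one of the 7 arrays. Their summed level was 11.63 to 11.69 in sham hearts and 11.70, 11.56 and 11.82 in TAC replicates 1 to 3. One array outside the comparison, KO TAC replicate 4, stood apart with a median signal of 453.9 and a median correlation of 0.807. It was left out of the fit, which used the other 14 arrays, and counts with it are given beside the results. With 7 arrays the number of hearts limits the precision. In such bulk RNA, fewer cells of a type and less RNA per cell cannot be told apart.

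Pressure overload stretches heart muscle cells and raises the tension in the ventricular wall. Muscle cells are known to answer with natriuretic peptides, which act on the kidney and vessels to lower pressure, and with a return of genes of the fetal heart. Fibroblasts divide and lay down collagen, monocytes and neutrophils enter the tissue, and the adult muscle's oxidation of fatty acids declines over the following weeks. Day 3 lies in the early phase, before lasting enlargement or failure.

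Of 25095 features tested, 5839 (23.3%) passed an adjusted p of 0.05 in limma with slide as a block. After TAC 2992 (11.9%) rose and 2847 (11.3%) fell. The rises were larger: 1400 rose and 825 fell by more than 2-fold, and 461 rose and 126 fell by more than 4-fold. In 4621 of the 5839 called features the TAC and sham hearts did not overlap, against 27.5% of all features tested. For 144 rises and 160 falls the gene was not well above background on any heart of the lower group. Differences below are fitted log2 differences, TAC minus sham, ± their moderated standard errors (SE), and adjusted p-values are limma's over all 25095 features. Of the 14678 features with a symbol, from which the gene lists were drawn, 14.6% rose and 11.7% fell. Counts within lists are to be read beside these shares.

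The count of calls depended on the arrays used and on how the spread was estimated. With all 15 arrays 2125 features were called, 1374 rises and 751 falls, and all 2125 were among the 5839. With the 7 arrays alone and slide as a block, 1 feature was called, with 7419 at an unadjusted p under 0.05, and without the block 2414 were. Leaving out TAC replicate 1, TAC replicate 2, sham replicate 2 or sham replicate 3 left 2072, 1655, 3806 and 1915. Of the 5839 called features, 5785 had the same sign in all 3 slides that hold both groups, against 57.5% of all features. The features were called from these very hearts, which by itself favours equal signs.

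**Figure D1:**
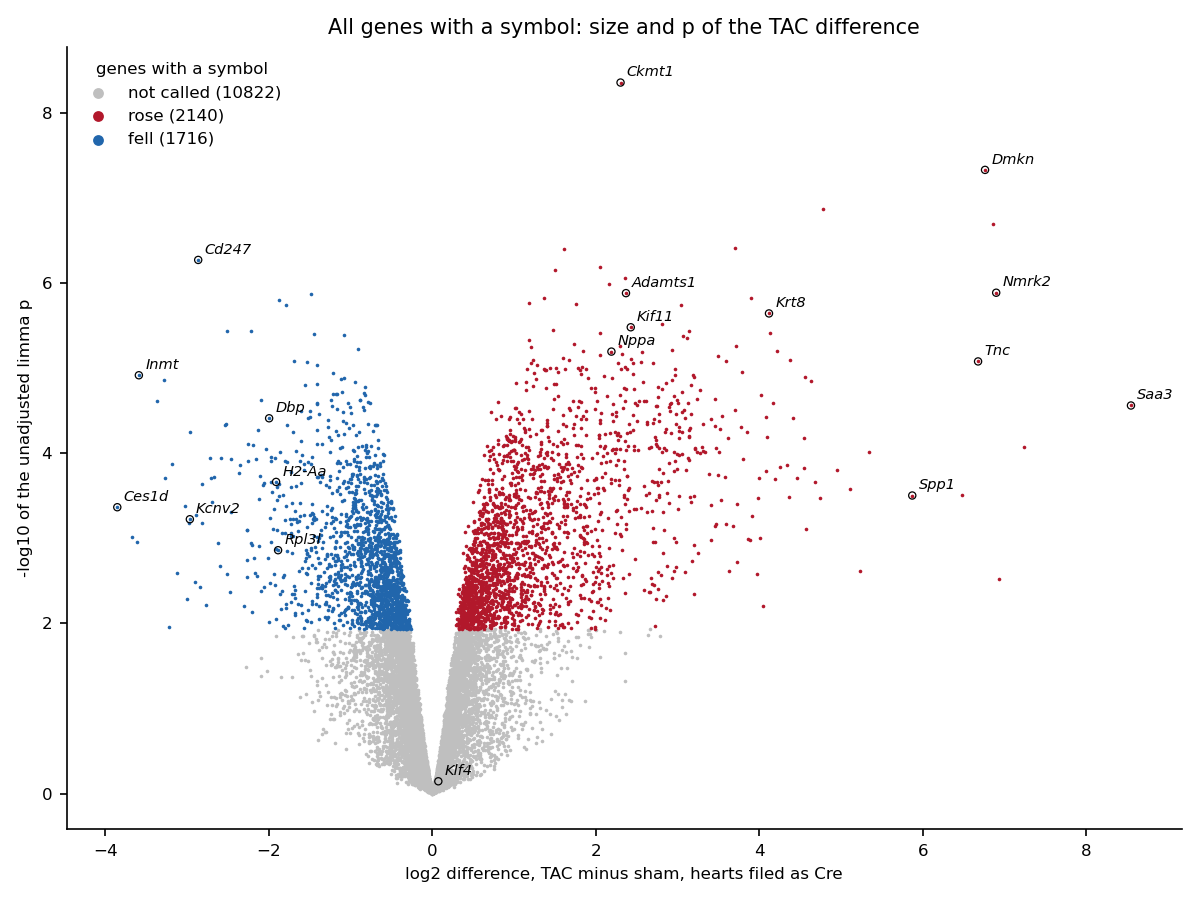
Each point is 1 gene with a symbol, placed by its fitted log2 difference between TAC and sham hearts filed as Cre (horizontal axis) and by the negative log10 of its unadjusted limma p (vertical axis). Red points are the 2140 named genes that rose, blue points the 1716 that fell and grey points the genes not called; Nmrk2, Tnc and Saa3 lie far to the right, and Ces1d and Inmt to the left.

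The hormones and stretch-sensitive genes of the muscle cell rose in all 3 loaded hearts. In the list of natriuretic and fetal genes 17 of 21 measured members rose and 0 fell, and 13 rose with all 15 arrays or 10 without TAC replicate 2. Their median difference was 1.76, against -0.05 over all features. Nppa, the atrial natriuretic peptide, read 6.63, 6.79, 5.54 and 6.70 in sham replicates 1 to 4 and 8.37, 8.57 and 8.48 in TAC replicates 1 to 3. The loaded hearts lay close together above every sham heart, and sham replicate 3 was the lowest. The difference was 2.19 ± 0.24 (4.56-fold; adjusted p = 0.00266). Nppb, the B-type peptide used as a marker of wall stress, read 5.15, 4.87, 4.44 and 6.04 in sham and 7.58, 7.31 and 7.64 in TAC hearts, a rise of 2.45 ± 0.29. Its second probe gave 2.18 ± 0.27. Acta1, the skeletal actin of the fetal heart, read 5.15, 4.83, 3.97 and 4.91 in sham and 6.56, 6.30 and 6.68 in TAC hearts and rose by 2.00 ± 0.34. No sham heart reached the level of a loaded one in any of these genes.

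Nmrk2 had the largest rise among genes well above background on all 7 arrays. It encodes a kinase that makes NAD from nicotinamide riboside, and it read 0.91, 0.33, -0.26 and 0.99 in sham and 7.07, 7.32 and 6.84 in TAC hearts. The gap between the lowest loaded and the highest sham heart was thus wider than the whole sham range, and the rise was 119-fold (6.90 ± 0.63; adjusted p = 0.00182). Ankrd1, a titin-linked stretch sensor, read 6.20, 6.18, 5.60 and 6.55 in sham hearts and 7.33 in each of the 3 loaded hearts, a rise of 1.27 ± 0.18. Rcan1, an inhibitor and target of calcineurin, rose by 1.76 ± 0.17 and Gdf6, a secreted growth factor of the BMP family, by 3.71 ± 0.40. Ckmt1, a mitochondrial creatine kinase, had the smallest p of all named genes. It read -4.40, -4.38, -4.10 and -3.44 in sham and -1.30, -1.74 and -2.14 in TAC hearts, a rise of 2.30 ± 0.11 (adjusted p = 0.000111), but the adjusted p was 0.079 with all 15 arrays.

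The myosin switch of the mouse heart read as small on these arrays at day 3. Myh7, the slow myosin heavy chain of the fetal ventricle, read 7.62, 7.52, 7.20 and 7.72 in sham and 8.02, 8.09 and 8.28 in TAC hearts. The groups did not overlap, and the rise was 0.73 ± 0.22 (adjusted p = 0.0398, and 0.15 with all 15 arrays). Myh6, the adult heavy chain, read 7.92, 7.87, 7.91 and 7.87 in sham and 7.87, 7.47 and 8.08 in TAC hearts. It differed by -0.09 ± 0.20 (adjusted p = 0.771), with overlapping groups. Of 23 genes of the sarcomere and Z-disc 5 rose and 0 fell, and 3 rose with all 15 arrays or without sham replicate 3, TAC replicate 1 or TAC replicate 2. After normexp and quantile normalization 4 rose and 3 fell. Synpo2l, a Z-disc protein, rose by 2.20 ± 0.33, Flnc, which crosslinks actin, by 1.12 ± 0.21 and Pdlim5, a Z-disc scaffold, by 0.92 ± 0.13. The abundant Mybpc3 and Myl2, a myosin-binding protein and a light chain, differed by 0.21 ± 0.16 and 0.08 ± 0.15 and were not called.

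**Figure D2:**
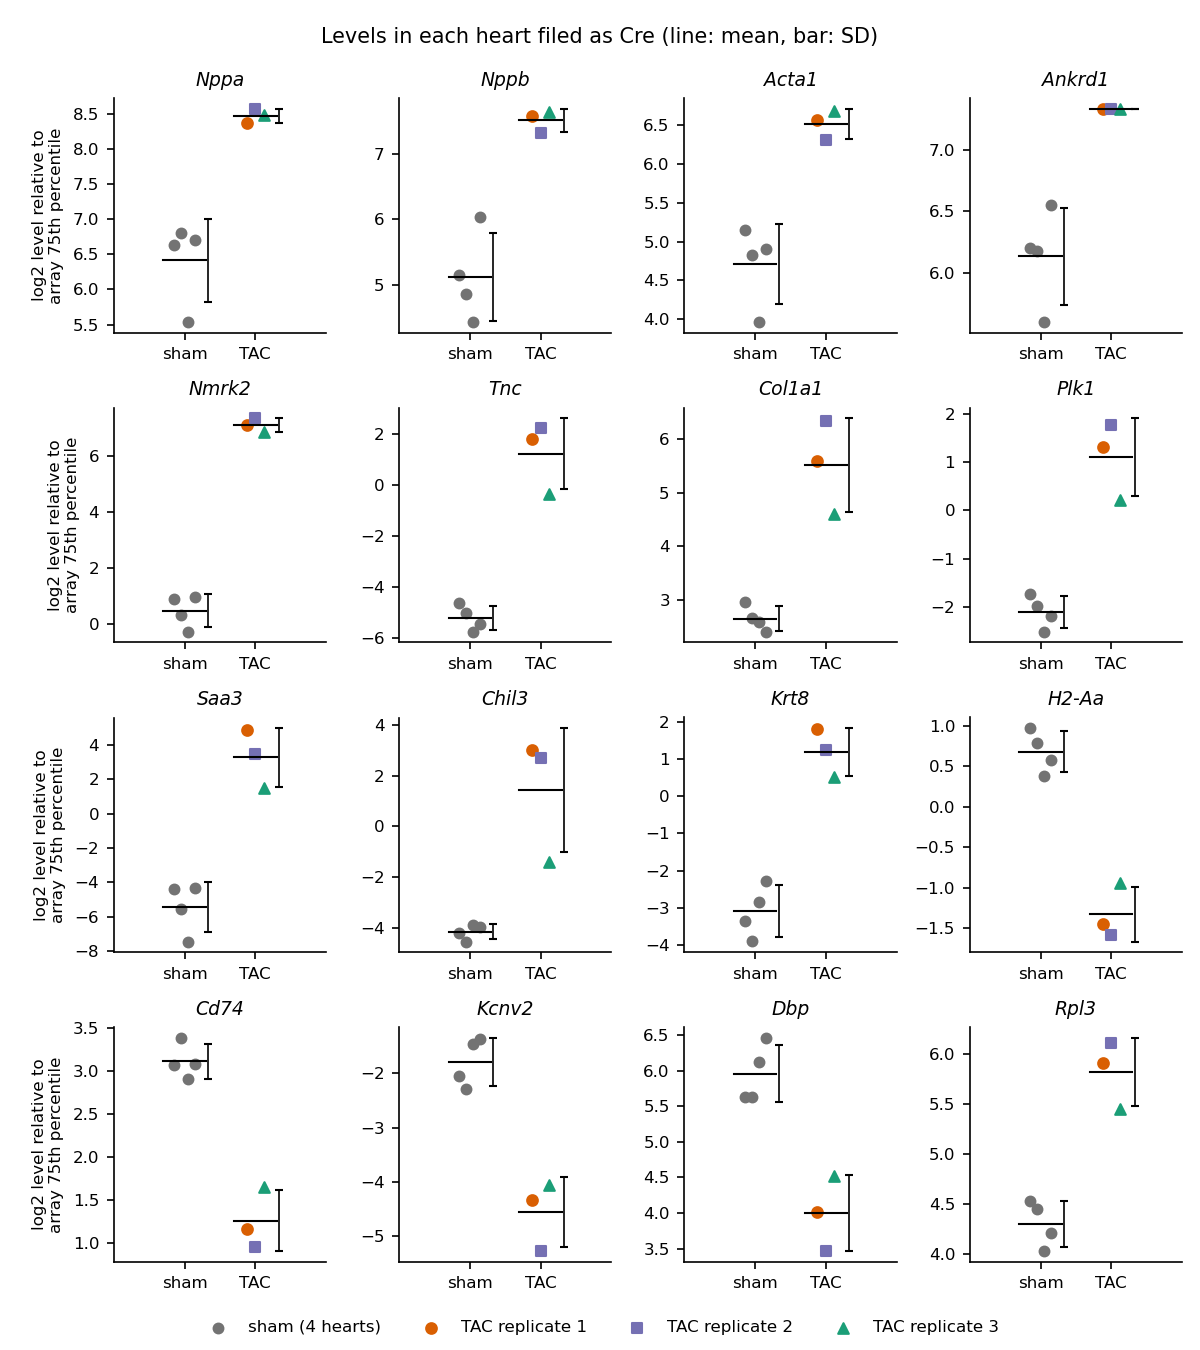
Each panel shows 1 gene in the 7 hearts filed as Cre, as log2 level relative to the 75th percentile of the array, with grey points for the 4 sham hearts, coloured points for TAC replicates 1 to 3, lines for group means and bars for SD. Nppa, Nppb, Acta1, Ankrd1 and Nmrk2 are about equally high in the 3 loaded hearts, while TAC replicate 3 (green triangle) is the lowest of the 3 in Tnc, Col1a1, Plk1, Saa3 and Chil3; H2-Aa, Cd74, Kcnv2 and Dbp are lower after TAC.

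Genes of calcium handling moved in both directions, with 3 rises and 4 falls among 20 (11.9% and 11.3% over all features) and a median of -0.15. With all 15 arrays there was 1 of each, as without sham replicate 3, TAC replicate 1 or TAC replicate 2, and the falls numbered 1 or 2 without any other sham heart filed as Cre. Camk2b, a subunit of a calcium-dependent kinase, read -0.46, -0.70, -0.37 and -0.03 in sham and -1.39, -2.30 and -1.55 in TAC hearts and fell by 1.41 ± 0.17 on the log2 scale. Slc8a1, the sodium-calcium exchanger, rose by 1.37 ± 0.21. Both groups of hearts were apart in Camk2b. Pln, which restrains the calcium pump of the sarcoplasmic reticulum, fell by 0.70 ± 0.21, and this call was lost with all 15 arrays. The pump itself, Atp2a2, read 7.27, 7.28, 7.32 and 6.82 in sham and 6.52, 6.77 and 7.28 in TAC hearts. These overlapped, and the difference of -0.29 ± 0.15 was not called (adjusted p = 0.185).

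More genes fell than rose among ion channels and cardiac transcription factors. Of 25 potassium and sodium channel genes 10 fell and 1 rose (4 and 1 with all 15 arrays), with a median of -0.43. Leaving out 1 of sham replicates 1 to 4, TAC replicate 1 or TAC replicate 2 left 6, 6, 2, 6, 5 and 1 falls. Kcnv2, a silent potassium channel subunit, read -2.05, -2.29, -1.47 and -1.37 in sham and -4.34, -5.28 and -4.05 in TAC hearts. Every loaded heart was below every sham heart, and the fall was 2.97 ± 0.58 on the log2 scale (adjusted p = 0.00931). Kcnip2, the subunit that sets the transient outward current, fell by 1.81 ± 0.36, a call lost with all 15 arrays, and Kcnh2, a delayed rectifier, by 0.60 ± 0.12. Of 23 cardiac transcription factors 5 fell and 1 rose, and 0 and 1 were called with all 15 arrays. The falls numbered 3, 2, 0, 2, 0 and 0 when the same 6 hearts were left out 1 at a time, and 2 without KO sham replicate 2, and 8 after normexp and quantile normalization. Tbx20 rose by 0.96 ± 0.21, while Tbx5 and Klf15 fell by 1.07 ± 0.26 and 0.64 ± 0.15.

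Genes of the extracellular matrix rose in large numbers. Of 29 matricellular and adhesive glycoproteins 22 rose and 0 fell, with a median of 1.87, and 20 rose with all 15 arrays. Of 20 collagens 16 rose and 1 fell (median 1.49), and of 19 enzymes that process or crosslink collagen 11 rose and 0 fell (median 0.72). With all 15 arrays 13 collagens and 7 of these enzymes rose. Without TAC replicate 2 the collagens that rose numbered 9, and without sham replicate 3, TAC replicate 1 or TAC replicate 2 the enzymes numbered 6 each time. The glycoproteins that rose numbered 17 to 23 without any 1 array. Tnc, tenascin C of healing and developing tissue, read -4.64, -5.04, -5.75 and -5.43 in sham and 1.81, 2.23 and -0.36 in TAC hearts. TAC replicate 3 was the lowest loaded heart and still lay far above every sham heart, and the rise was 102-fold (6.68 ± 0.75; adjusted p = 0.00266). Cthrc1, a secreted protein of collagen-making cells, was not well above background in any sham heart and at least 76.3-fold higher after TAC. For genes so placed, the bound divides the mean of the loaded hearts by the dimmest signal that was still well above background on each sham array.

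Spp1, osteopontin, read -3.69, -3.99, -2.94 and -3.61 in sham and 3.84, 3.84 and -0.82 in TAC hearts. Replicate 3 was thus much lower than the other loaded hearts, and the rise of 5.87 ± 1.05 averages unequal responses. Postn, periostin of activated fibroblasts, read 2.81, 2.15, 1.50 and 1.88 in sham and 5.77, 6.50 and 5.33 in TAC hearts and rose by 4.02 ± 0.51. Col1a1, the main fibrillar collagen chain, read 2.95, 2.66, 2.57 and 2.40 in sham and 5.61, 6.35 and 4.60 in TAC hearts, a rise of 2.97 ± 0.47. In both genes the groups were apart and replicate 3 was again the lowest loaded heart. Col3a1 and Col5a2, which form fibrils with it, rose by 2.39 ± 0.36 and 2.74 ± 0.41, and Col8a1, a short-chain collagen, by 2.77 ± 0.38. Col4a3, a basement membrane chain, was the collagen that fell (0.97 ± 0.27 on the log2 scale), a call lost with all 15 arrays. Col4a4 and the proteoglycan Dcn were not called, at -0.00 ± 0.09 and 0.26 ± 0.14. Loxl2, which crosslinks collagen, rose by 3.07 ± 0.41, and Adamts2 and Pcolce, which trim procollagen, by 2.07 ± 0.28 and 1.23 ± 0.20.

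Proteases and their inhibitors rose together, 12 of 24 with 1 fall, and 7 rose without sham replicate 3 or TAC replicate 1. Timp1, an inhibitor of matrix metalloproteinases, read 1.58, 1.11, 0.46 and 1.46 in sham and 6.97, 6.65 and 4.26 in TAC hearts and rose by 4.94 ± 0.81. Adamts1, a proteoglycan-cutting protease, rose by 2.37 ± 0.22 and Mmp14, a membrane-bound metalloproteinase, by 1.90 ± 0.23. Timp2 and Timp3 differed by 0.26 ± 0.19 and 0.37 ± 0.20 and were not called. In the list of TGF-beta and activin signalling 6 of 27 rose and 4 fell, with a median of 0.10, and 4 and 0 were called with all 15 arrays. Without sham replicate 2, sham replicate 3, TAC replicate 1 or TAC replicate 2 the rises numbered 3, 1, 1 and 2 and the falls 1, 1, 1 and 0, and without sham replicate 4 the falls numbered 2. Fstl1 and Fstl3, secreted follistatin-like proteins, rose by 2.30 ± 0.27 and 1.76 ± 0.41, and Smad3, the transducer of TGF-beta, fell by 0.64 ± 0.14, a call lost with all 15 arrays.

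Cell division was the list with the largest median. In dividing cells, genes of DNA synthesis are bound by E2F factors, and many of mitosis carry a CHR element (TTTGAA), which the DREAM complex binds, and upstream of it CCAAT boxes, which the factor NF-Y binds. Promoters of called members are shown here because the 2 groups of genes differ in TTTGAA and in the E2F letters, and less in CCAAT. The lines give 150 bases, 100 before and 50 after the start, 5′ to 3′ on the gene's strand, from RefSeq with the build GRCm38.p6. The search for promoters to print left a chromosome out. The first 4 have the smallest p among the called mitosis genes searched that hold both motifs in this window. In these, capitals mark TTTGAA and CCAAT or their reverse complements TTCAAA and ATTGG. In the last 2, called DNA replication genes, capitals mark only the E2F letters TTTGGCGC. CCAAT or ATTGG is not marked there, and Mcm6 holds attgg in small letters.
Kif11 (chr19:37376282-37376431, + strand): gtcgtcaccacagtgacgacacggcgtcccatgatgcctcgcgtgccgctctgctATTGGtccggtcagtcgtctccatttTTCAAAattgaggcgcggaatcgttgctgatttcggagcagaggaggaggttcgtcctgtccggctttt
Plk1 (chr7:122159335-122159484, + strand): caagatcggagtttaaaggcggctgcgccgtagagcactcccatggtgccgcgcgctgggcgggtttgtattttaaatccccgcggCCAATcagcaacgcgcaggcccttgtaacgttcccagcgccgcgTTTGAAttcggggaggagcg
Prc1 (chr7:80294351-80294500, + strand): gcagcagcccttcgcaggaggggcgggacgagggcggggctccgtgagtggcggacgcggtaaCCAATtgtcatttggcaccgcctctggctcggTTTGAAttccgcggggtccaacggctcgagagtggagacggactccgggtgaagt
Ube2c (chr2:164769829-164769978, + strand): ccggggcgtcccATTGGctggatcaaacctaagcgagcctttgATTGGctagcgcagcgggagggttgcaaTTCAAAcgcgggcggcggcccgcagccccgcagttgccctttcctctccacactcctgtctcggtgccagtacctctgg
Mcm6 (chr1:128359656-128359805, - strand): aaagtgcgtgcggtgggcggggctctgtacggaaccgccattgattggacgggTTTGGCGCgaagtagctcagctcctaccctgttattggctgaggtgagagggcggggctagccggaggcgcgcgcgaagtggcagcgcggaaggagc
Cdt1 (chr8:122567915-122568064, + strand): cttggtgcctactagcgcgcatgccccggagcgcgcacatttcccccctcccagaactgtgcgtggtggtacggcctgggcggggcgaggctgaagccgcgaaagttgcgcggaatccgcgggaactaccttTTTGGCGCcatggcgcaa

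Of the 36 mitosis genes measured 30 had a promoter in the table, and 76.7% of these held TTTGAA within 250 bases before to 50 after the start, on either strand. The share was 16.7% of 30 DNA replication genes and 20.2% of all 27025 genes with such a window. CCAAT was in 73.3%, 60% and 41.1%. Both motifs together were in 63.3%, 13.3% and 7.97%. E2F letters (TTTGGCGC, TTTCCCGC, TTTCGCGC or TTTGCCGC) were in 3.33% of the mitosis, 40% of the replication and 2.6% of all genes. The members of each list were picked for their role, so the shares describe promoters of known function, and a match is not a bound site.

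Of the 36 mitosis and cytokinesis genes 33 rose and 1 fell, with a median of 2.69, and 31 and 1 with all 15 arrays. Without any 1 of the 14 arrays 31 to 33 rose. Plk1, a kinase that drives entry into mitosis, read -1.72, -1.98, -2.50 and -2.19 in sham and 1.32, 1.77 and 0.22 in TAC hearts. Every loaded heart was above every sham heart, with replicate 3 the lowest, and the rise was 9.08-fold (3.18 ± 0.38; adjusted p = 0.00273). Kif11, the motor that separates the spindle poles, rose by 2.43 ± 0.25. Cenpe and Kif2c, which attach chromosomes to the spindle, rose by 2.97 ± 0.34 and 3.20 ± 0.38, and Mki67, the proliferation antigen, by 2.50 ± 0.33. Ube2c and Prc1, whose promoters are shown, rose by 2.30 ± 0.29 and 2.81 ± 0.35. Cenpf, a kinetochore protein, was the member that fell. It read 1.60, 1.96, 2.44 and 2.18 in sham and 0.41, 0.25 and 0.27 in TAC hearts (-1.90 ± 0.33), and its second probe gave -2.09 ± 0.42. Bub1 and Cenpa were not called, at -0.16 ± 0.11 and 0.06 ± 0.27, but the mean over the probes of Bub1 gave 1.37 and was called.

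Of 35 DNA replication genes measured 23 rose and 1 fell, with a median of 0.85, and 15 and 0 with all 15 arrays. The rises numbered 14 without sham replicate 3, TAC replicate 1 or TAC replicate 2. Uhrf1, which keeps DNA methylation through replication, read -1.66, -1.87, -3.45 and -2.90 in sham and -0.08, 0.12 and -0.49 in TAC hearts and rose by 2.47 ± 0.38. The sham hearts were more scattered than the loaded ones. Mcm6 and Mcm10, parts of the replicative helicase machinery, rose by 1.33 ± 0.19 and 1.68 ± 0.22, and Cdt1, which loads that helicase, by 1.28 ± 0.21. Dut, which keeps uracil out of DNA, fell by 0.67 ± 0.18, a call lost with all 15 arrays. The sliding clamp Pcna differed by 0.29 ± 0.10 and was not called. The arrays do not say which cells divided, and markers of fibroblasts, macrophages and neutrophils were higher in the same hearts, as given next.

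Acute phase and complement genes rose in the loaded hearts, 16 of 30 with 1 fall (median 0.81; 13 and 0 with all 15 arrays). Without sham replicate 2, sham replicate 3, TAC replicate 1 or TAC replicate 2 the rises numbered 10, 9, 8 and 8. Saa3, an acute phase amyloid, read -4.37, -5.58, -7.45 and -4.32 in sham and 4.86, 3.50 and 1.47 in TAC hearts. It had the largest fitted rise of any gene on a list, 8.55 ± 1.12 (adjusted p = 0.00301), but 1 sham heart was not well above background. Hp, which binds free haemoglobin, rose by 4.74 ± 0.86, and Lcn2, which withholds iron from bacteria, by 4.55 ± 0.74. Serpina3n, a protease inhibitor, rose by 4.47 ± 0.75. Cfb, a complement protease, read -1.74, -1.85, -2.27 and -1.48 in sham and 2.65, 2.24 and 2.10 in TAC hearts, so that its 3 loaded hearts were nearly equal, and rose by 4.22 ± 0.46. C3, the central complement protein, rose by 1.19 ± 0.17. Cfd, a complement protease made by fat cells, was the member that fell (3.12 ± 0.76 on the log2 scale), with an adjusted p of 0.057 with all 15 arrays.

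Of 25 chemokines 10 rose and 3 fell (8 and 1 with all 15 arrays), and of 28 genes of the interleukin-6 and interleukin-1 families 12 rose and 2 fell (6 and 1). When sham replicate 2, sham replicate 3, TAC replicate 1 or TAC replicate 2 was left out, 6, 2, 1 and 1 chemokines rose, and without the last 3 of these 7, 5 and 5 interleukin genes did. Ccl8, Ccl6 and Ccl3, which attract monocytes, rose by 3.19 ± 0.57, 2.36 ± 0.48 and 2.97 ± 0.64. Cxcl9, a chemokine induced by interferon gamma, fell by 1.68 ± 0.26. Il6 was not cleanly separated. It read -7.25, -7.70, -8.16 and -3.19 in sham and -1.90, -1.82 and -4.19 in TAC hearts, so that sham replicate 4 lay above TAC replicate 3, and 1 of 4 sham hearts was well above background. Its rise of 4.04 ± 1.15 (adjusted p = 0.034) was not called with all 15 arrays (0.052). Osmr, the oncostatin M receptor, rose by 1.21 ± 0.17. Il1r2, the decoy receptor of interleukin-1, was not well above background in any sham heart and at least 13.2-fold higher after TAC.

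Interferon-stimulated genes had no shared direction, with 3 rises and 3 falls among 30 and a median of -0.06. The falls numbered 6 after normexp and quantile normalization, 7 without TAC replicate 3 and 0 without TAC replicate 1, TAC replicate 2 or any of sham replicates 2 to 4. Zbp1, a sensor of left-handed nucleic acid, read -2.52, -2.67, -2.82 and -2.24 in sham and -0.31, -0.91 and -0.49 in TAC hearts and rose by 2.04 ± 0.30. Rsad2, an antiviral enzyme, fell by 1.08 ± 0.28. The shares called, 3 of 30 each way, were near the background of all features.

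Markers of myeloid cells were higher and those of lymphocytes and MHC class II lower in the loaded hearts. Of 26 macrophage and monocyte markers measured 20 rose and 0 fell (18 and 0 with all 15 arrays), and 25 of the 26 were well above background on all 7 arrays. The rises numbered 12, 12 and 9 without sham replicate 3, TAC replicate 1 and TAC replicate 2. Their summed level was 6.67 to 7.23 in sham and 7.99, 7.80 and 7.42 in TAC hearts. Chil3, a chitinase-like protein of alternatively activated macrophages, read -4.20, -4.55, -3.91 and -3.98 in sham and 3.00, 2.69 and -1.39 in TAC hearts, with a rise of 5.34 ± 0.82. Arg1, arginase, read 0.96, 0.57 and -4.94 in TAC hearts, was not well above background in any sham heart, and was at least 39.9-fold higher after TAC. In both genes TAC replicate 3 lay far below the other loaded hearts. Mrc1, the mannose receptor of resident macrophages, rose by 1.73 ± 0.25. Cd163, a haemoglobin scavenger receptor, rose by 1.40 ± 0.19 with slide as a block, although the levels of the groups overlapped (-0.87 to 1.07 in sham and 0.92, 2.26 and 1.95 in TAC hearts). Ly6c2 and Folr2, markers of recruited monocytes and of resident macrophages, were not called, at 0.17 ± 0.11 and 0.52 ± 0.18.

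Neutrophil markers rose in 9 of 16 measured, and 5 rose with all 15 arrays and 3 without sham replicate 3 or TAC replicate 1. The summed level was -0.40 to 1.09 in sham and 3.84, 3.66 and 3.30 in TAC hearts. Only 8 of the 16 were well above background on all 7 arrays, and the defining gene Ly6g was not among the genes measured. Clec4e and Clec4d, C-type lectins of myeloid cells, rose by 4.34 ± 0.70 and 4.19 ± 0.71, and Mmp8, neutrophil collagenase, was at least 8.76-fold higher. Mpo and Mmp9, stored in neutrophil granules, were not called, at 0.38 ± 0.17 and -0.00 ± 0.32. Of 20 lymphocyte and MHC class II markers 13 fell and 0 rose (6 and 0 with all 15 arrays), and 5, 7, 3 and 5 fell without sham replicate 3, sham replicate 4, TAC replicate 1 and TAC replicate 2, and 8 after normexp and quantile normalization. Only 11 of these 20 were well above background on all 7 arrays. Their summed level was 4.15 to 4.51 in sham and 2.43, 2.42 and 2.89 in TAC hearts. Bright members weigh most in this sum. In sham hearts Cd74 read 2.90 to 3.39, while Cd79b and Gzma were scattered at -2.30 to -0.48 and -5.31 to -2.76. H2-Aa, a chain of the MHC class II molecule, read 0.97, 0.78, 0.38 and 0.58 in sham and -1.45, -1.59 and -0.94 in TAC hearts. The groups were well apart, with a fall of 1.91 ± 0.33 on the log2 scale. Cd74, its invariant chain, fell by 1.73 ± 0.30 and Cd79b, of the B cell receptor, by 1.47 ± 0.29. Cd247, of the T cell receptor, and Gzma, a granule protease of killer cells, were not well above background in any loaded heart and at least 6.51-fold and 3.86-fold lower. Cd3e differed by -0.15 ± 0.11 and was not called.

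Among resident cells fibroblast markers rose, 11 of 19 with 1 fall (10 and 1 with all 15 arrays, and 7 rises without sham replicate 3, TAC replicate 1 or TAC replicate 2), and their summed level was 8.40 to 8.79 in sham and 9.49, 9.52 and 9.16 in TAC hearts. This list shares genes with the matrix lists, among them Postn, Col1a1, Col3a1 and Dcn. Mfap5, a microfibril protein, rose by 2.93 ± 0.35, while Dcn and Htra3 were not called. Endothelial markers fell in 5 of 22 and rose in 0, with summed levels of 8.16 to 8.55 in sham and 8.26, 8.03 and 8.53 in TAC hearts, which overlap. Aplnr, the apelin receptor, fell by 1.99 ± 0.39, the 1 endothelial call that held with all 15 arrays. Without sham replicate 3, TAC replicate 1, TAC replicate 2 or TAC replicate 3 the endothelial falls numbered 3, 1, 0 and 8. Smooth muscle and pericyte markers split, with 3 rises and 4 falls among 18 (1 and 3 with all 15 arrays, and 1 and 1 without sham replicate 3 or TAC replicate 2). Cspg4, a pericyte proteoglycan, rose by 0.80 ± 0.10, and Vtn and Abcc9, also of pericytes, fell by 1.26 ± 0.18 and 1.36 ± 0.28. Of the red cell genes 4 were measured and limma called 0 (3 had an unadjusted p under 0.05, 2 fell after normexp and quantile normalization and 3 without TAC replicate 3), at 0.05 to -0.97. Hba-a1 and Hbb-bt were at -0.85 ± 0.30 and -0.58 ± 0.25. The part of these cell types in the other gene groups was not tested.

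Keratins and mesothelial genes rose and fat cell genes fell in one list of surface and fat markers, 8 and 6 of 17, but 6 and 1 with all 15 arrays. Without sham replicate 3, TAC replicate 1 or TAC replicate 2 there were 4 rises each time, and the falls numbered 3, 3 and 2, and 3 without sham replicate 4. Krt8, a keratin of simple epithelia and the mesothelium, read -3.36, -3.91, -2.84 and -2.28 in sham and 1.80, 1.24 and 0.51 in TAC hearts. The 3 loaded hearts exceeded the sham heart on their own slide by 4.08, 4.08 and 3.87, and the rise was 17.4-fold (4.12 ± 0.40; adjusted p = 0.00212). Krt19 rose by 3.58 ± 0.60 and Msln, mesothelin, by 2.82 ± 0.63. Adipoq, adiponectin of fat cells, read -4.28, -3.84, -4.52 and -3.35 in sham and -6.69, -8.19 and -5.94 in TAC hearts, where 1 of 3 was well above background. It fell by 2.82 ± 0.48 on the log2 scale, and Cidec, a lipid droplet protein, by 2.58 ± 0.40. The fall of Adipoq was not called with all 15 arrays (adjusted p = 0.16), while that of Cidec was. Pparg, the regulator of fat cell genes, was not called, at -0.06 ± 0.14.

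Further genes with large rises or small p lay outside the lists. Dmkn, dermokine of the skin, was not well above background in any sham heart and, by the brighter of its probes, at least 86.7-fold higher in loaded hearts (adjusted p = 0.000588). Chil1, a chitinase-like protein, was at least 54.1-fold higher, Lgals7, a galectin of stratified epithelia, at least 15.2-fold, and Aqp5, a water channel, at least 4.1-fold. Their loaded hearts were close together, at 0.49, -0.08 and -0.40 for Dmkn and -0.64, -0.40 and -1.05 for Chil1. Slpi, a protease inhibitor of mucosal surfaces, rose by 4.37 ± 0.49, and Sprr1a, of the cornified envelope and also of stressed muscle, by 5.23 ± 1.27. Sprr1a was uneven, at 1.42, 3.78 and -0.39 in TAC hearts against -3.58 to -3.03 in sham hearts. Cd44, the hyaluronan receptor, read 0.03, 0.13, -0.15 and 0.04 in sham and 1.96, 2.38 and 1.76 in TAC hearts and rose by 2.06 ± 0.17. Lsr, of tricellular junctions, Smpd3, a sphingomyelinase, and Clca3a1, a chloride channel regulator, rose by 1.50 ± 0.13, 1.61 ± 0.13 and 2.35 ± 0.20.

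Genes for burning fatty acids and branched-chain amino acids had negative medians, and the number of genes of energy metabolism called depended on the scaling. Of 31 fatty acid genes 5 fell (11.3% over all features) and 0 rose, with a median of -0.45, and 2 fell with all 15 arrays. This count turned on single hearts, with 3, 1, 0, 1, 0 and 0 falls without sham replicates 1 to 4, TAC replicate 1 and TAC replicate 2, 14 without TAC replicate 3 and 9 without KO TAC replicate 1. It also turned on scaling, with 17 falls after normexp and quantile normalization and 10 after quantile normalization. Ucp3, a mitochondrial carrier, read -0.44, -0.23, -0.16 and -0.26 in sham and -2.36, -3.00 and -1.07 in TAC hearts and fell by 2.06 ± 0.54 on the log2 scale. Sham hearts were tight and loaded hearts spread, with replicate 3 nearest to sham. Acot1, a thioesterase, fell by 1.48 ± 0.38 and Cpt2, of the carnitine shuttle, by 0.87 ± 0.22, the latter a call lost with all 15 arrays. Fabp3, the abundant fatty acid binding protein, was not called, at 0.13 ± 0.15. In the metabolism of ketones and branched-chain amino acids 8 of 23 fell and 1 rose (median -0.63), but 1 fell and 0 rose with all 15 arrays. The falls numbered 5, 4, 1, 4, 0 and 0 without sham replicates 1 to 4, TAC replicate 1 and TAC replicate 2, and 14 without KO TAC replicate 1 or after normexp and quantile normalization. Bckdha, of the committed step of this breakdown, fell by 0.98 ± 0.22, while Bdh1, which uses ketones, rose by 0.79 ± 0.20. Neither call held with all 15 arrays.

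Of 29 citrate cycle genes 3 fell, a share near the 11.3% of all features, and 0 rose. With all 15 arrays 0 were called. The falls numbered 14 after normexp and quantile normalization, 9 after quantile normalization, 5 without KO TAC replicate 1, and 1 without sham replicate 3, TAC replicate 1 or TAC replicate 2. In complex I limma called 0 of 36 subunits, with a median of -0.13 and 6 at an unadjusted p under 0.05, and 0 with all 15 arrays. The falls in complex I numbered 15 after normexp and quantile normalization, 10 after quantile normalization, 1 after scaling to the array median, 4 without TAC replicate 3 and 3 without KO TAC replicate 1. In complexes III, IV and V 1 of 38 was called, Cox6a1, which rose by 0.49 ± 0.10 and was not called without sham replicate 3 or TAC replicate 2, and 6 members fell after normexp and quantile normalization. Sdha, which links the citrate cycle to the chain, fell by 1.02 ± 0.25. Complex I genes had a summed level of 12.13 to 12.21 in sham and 12.04, 11.72 and 12.23 in TAC hearts, and replicate 2 was the lowest. In glycolysis 6 of 27 rose and 3 fell (11.9% and 11.3% over all features), and 3, 3 and 2 rose without sham replicate 3, TAC replicate 1 and TAC replicate 2. Pfkp, the platelet form of phosphofructokinase, read 1.41, 1.47, 1.45 and 1.67 in sham and 2.75, 3.37 and 2.63 in TAC hearts and rose by 1.47 ± 0.19. The groups were far apart. Pgam1 and Hk1, further glycolytic enzymes, rose by 0.99 ± 0.14 and 0.75 ± 0.15, the latter a call lost with all 15 arrays, and Gapdh and Aldoa were not called, at -0.00 ± 0.10 and 0.14 ± 0.11. Phkg1, the muscle kinase that switches on glycogen breakdown, read -1.61, -1.29, -0.37 and -1.57 in sham and -4.59, -4.69 and -3.17 in TAC hearts and fell by 3.02 ± 0.56 on the log2 scale.

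Ribosomal protein genes rose by small amounts, in a number that depended on the scaling. Of 54 measured 35 rose and 1 fell, with a median of 0.38. In 44 of the 54 every loaded heart was above every sham heart, against 13.7% of all features. With all 15 arrays 5 rose and 1 fell. The rises numbered 8 after quantile normalization, 12 after normexp and quantile normalization and 15 after scaling to the array median. They numbered 17, 15, 4, 13, 5 and 4 without sham replicates 1 to 4, TAC replicate 1 and TAC replicate 2. The summed level was 12.21 to 12.38 in sham and 12.66, 12.69 and 12.65 in TAC hearts. Rpl3 read 4.53, 4.44, 4.02 and 4.20 in sham and 5.91, 6.11 and 5.45 in TAC hearts and rose by 1.60 ± 0.22. Rpl3l, the form of the same protein made in striated muscle, was the member that fell, at 5.06, 5.05, 5.18 and 5.56 in sham and 4.03, 2.09 and 4.32 in TAC hearts (-1.89 ± 0.42). Most other members moved less, such as Rpl14 and Rpl12 at 0.80 ± 0.15 and 0.66 ± 0.12, and Rps2 was not called at 0.23 ± 0.12. Ribosomal protein genes have many near-identical copies in the genome, and a probe may read these too. Of 27 ribosome biogenesis genes 5 rose and 2 fell, and 1 to 8 rose when 1 heart filed as Cre was left out. Rrp12, a pre-ribosome factor, rose by 1.10 ± 0.21. Of 36 genes of tRNA charging and amino acid supply 7 rose and 2 fell (0 rises without sham replicate 3, TAC replicate 1 or TAC replicate 2, 4 without sham replicate 2 and 12 without TAC replicate 3). Among the rises were the serine synthesis enzymes Psat1 and Phgdh by 1.89 ± 0.39 and 1.77 ± 0.40.

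In the unfolded protein response of the endoplasmic reticulum 6 of 30 rose and 2 fell, but 1 rose and 0 fell with all 15 arrays. No gene rose without sham replicate 3, TAC replicate 1 or TAC replicate 2, and 3 did without sham replicate 2. Hspa5 and Hsp90b1, the main chaperones of that compartment, were not called, at 0.18 ± 0.21 and -0.01 ± 0.11. Atf3, a stress-induced factor, rose by 1.80 ± 0.40, and Ddit3, a death-promoting factor of the same response, fell by 0.57 ± 0.10, a call lost with all 15 arrays. Cytosolic heat shock genes rose in 5 and fell in 2 of 26, and in 1 and 0 with all 15 arrays. Rises numbered 1 to 3 without any 1 of sham replicates 1 to 4, TAC replicates 1 and 2 or KO sham replicates 2 to 4, and 2 after scaling to the array median. Falls numbered 7 after normexp and quantile normalization, 6 without TAC replicate 3, and 0 without TAC replicate 1 or 2 or sham replicate 1, 3 or 4. Hspb7, a small heat shock protein of heart muscle, rose by 1.07 ± 0.16, and Hspa8 was not called at 0.31 ± 0.22. Of 32 proteasome and atrophy genes 1 rose and 2 fell. These were Psmd14 at 0.37 ± 0.11, and Asb15 and Asb14, muscle ubiquitin ligase adaptors, at -1.24 ± 0.29 and -1.83 ± 0.46, of which Asb14 alone was called with all 15 arrays. Among 28 antioxidant genes 5 rose and 3 fell (3 and 2 with all 15 arrays). Rises numbered 2 without sham replicate 3, TAC replicate 1 or TAC replicate 2, 3 without sham replicate 4 and 8 without TAC replicate 3, and falls 10 after normexp and quantile normalization. Mt2, a metal-binding metallothionein, read 5.24, 4.56, 4.15 and 5.07 in sham and 7.35, 7.47 and 6.57 in TAC hearts and rose by 2.40 ± 0.42. Gstt1, a glutathione transferase, and Cat, catalase, fell by 1.22 ± 0.14 and 0.66 ± 0.14.

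Immediate early genes, switched on within minutes of a stimulus, were higher after TAC at day 3. Of 26 measured 16 rose and 0 fell, and 9 rose with all 15 arrays. The rises numbered 6, 5 and 5 without sham replicate 3, TAC replicate 1 and TAC replicate 2. Egr2 read -2.21, -2.35, -2.95 and -2.53 in sham and 0.63, 0.92 and -0.41 in TAC hearts and rose by 3.12 ± 0.41. Maff, a small Maf factor, rose by 1.62 ± 0.19 and Fosl2, of the AP-1 family, by 0.99 ± 0.15. Clock genes fell in 8 of 20 and rose in 3, and 7 falls and 1 rise were called with all 15 arrays, and 5 falls without TAC replicate 2. The rises numbered 0 or 1 without any 1 heart filed as Cre. Dbp, an output factor of the clock, read 5.63, 5.63, 6.12 and 6.46 in sham and 4.02, 3.46 and 4.53 in TAC hearts and fell by 2.00 ± 0.27 on the log2 scale. Tef, of the same family, fell by 1.12 ± 0.13, and Nr1d2 and Cry2, repressors of the clock, by 1.22 ± 0.15 and 0.76 ± 0.11. Arntl, the activator that peaks in antiphase to Dbp, rose by 1.29 ± 0.40 with overlapping groups, a call lost with all 15 arrays. The time of day at which hearts were taken is not in the labels, and its part in these values was not tested.

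Among the largest falls outside these lists were enzymes and secreted proteins. Ces1d, a carboxylesterase, read 3.61, 3.95, 3.88 and 3.80 in sham and 1.12, -2.53 and 1.54 in TAC hearts. The sham hearts were tight, and TAC replicate 2 was far below the other loaded hearts. The fall was 3.86 ± 0.72 on the log2 scale (adjusted p = 0.00791). Inmt, a methyltransferase of small amines, read 2.82, 3.04, 2.73 and 2.54 in sham and -1.11, -2.08 and 0.33 in TAC hearts and fell by 3.59 ± 0.42. Retnla, a secreted protein of macrophages and fat, fell by 3.62 ± 0.77, and Helt, a transcription factor, by 3.29 ± 0.39. Lgals4, a galectin, fell by 3.67 ± 0.77 from scattered sham levels of 1.66, 1.86, 4.12 and 4.19. Fcmr, the receptor for IgM on B cells, and Tbc1d10c, a lymphocyte regulator, fell by 2.72 ± 0.46 and 2.54 ± 0.35. The falls of Cngb3, a channel subunit, and Mrgprh, a receptor, 2.85 ± 0.74 and 2.72 ± 0.43, were not called with all 15 arrays (adjusted p = 0.075 and 0.14).

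**Figure D3:**
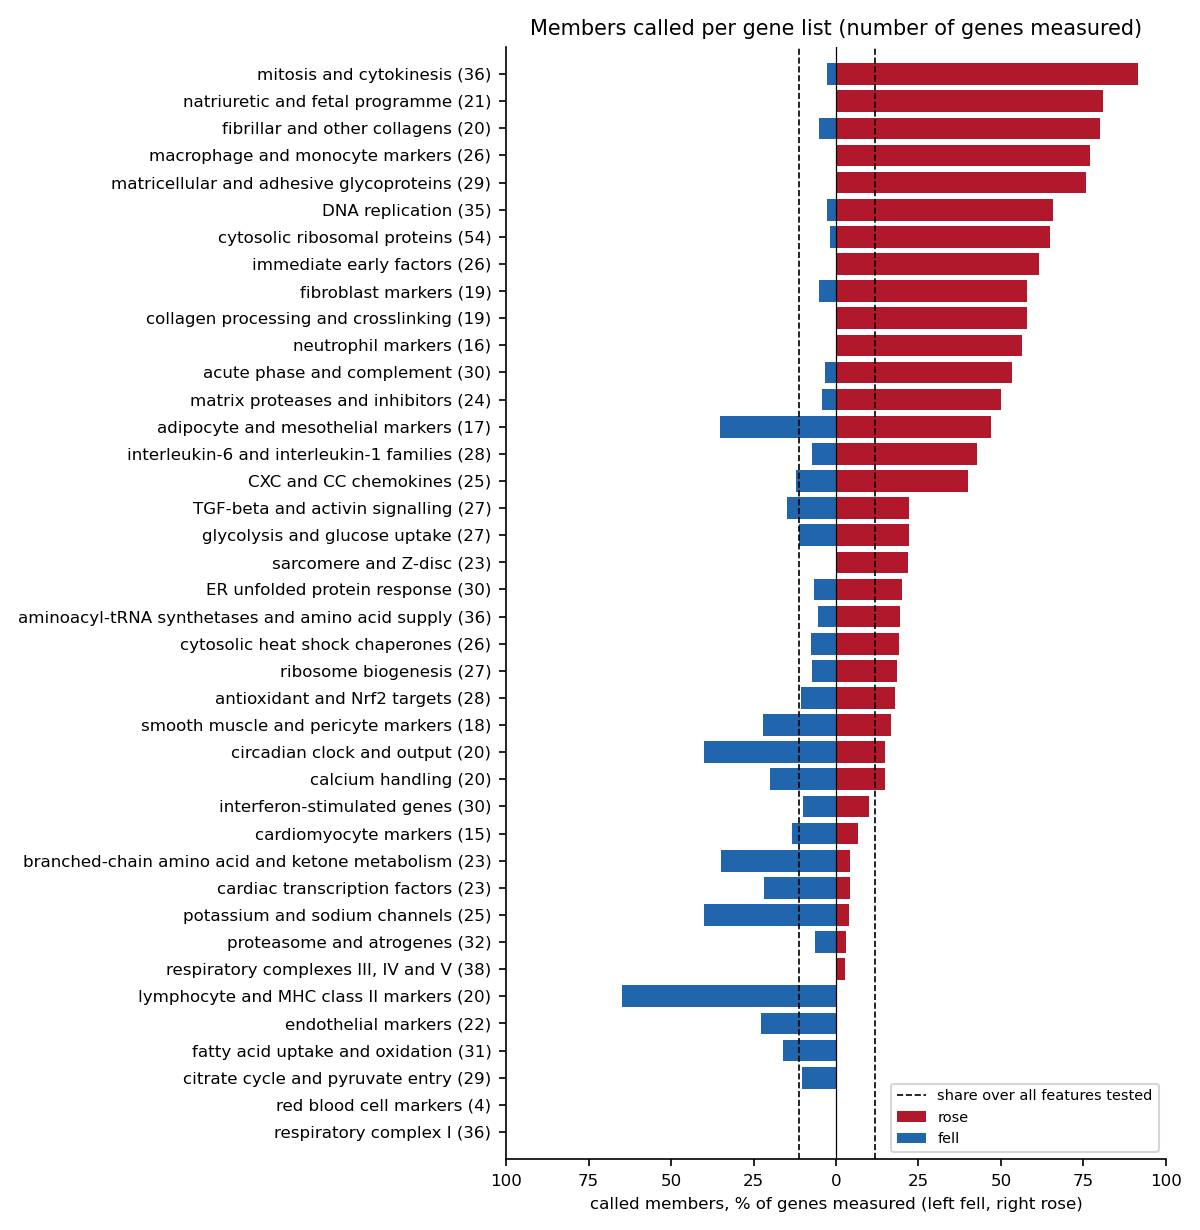
Bars give the share of measured genes of each list (number in brackets) that rose (red, to the right) or fell (blue, to the left) in hearts filed as Cre at a limma adjusted p under 0.05, and dashed lines give the shares over all 25095 features tested, 11.9% and 11.3%. Mitosis genes (33 of 36) lead the rises and lymphocyte and MHC class II markers (13 of 20) the falls, while complex I (0 of 36) has no called member with this scaling and 15 falls after normexp and quantile normalization.

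The 3 loaded hearts differed in the size of their response. Each shared a slide with 1 sham heart filed as Cre, and the difference within a slide gives each loaded heart its own value, with the spread of both hearts in it. Over the 2992 rises the median within-slide difference was 0.96, 1.24 and 0.56 in TAC replicates 1, 2 and 3, and over the 2847 falls -0.74, -0.98 and -0.44. Signs were kept: 2978 of the rises were positive and 2816 of the falls negative in replicate 3. Without replicate 3 limma called 7084 features. The smaller response of replicate 3 held for some lists and not for others. For mitosis the medians were 2.74, 3.86 and 1.50, for macrophage markers 2.11, 2.29 and 0.53, for collagens 1.00, 2.06 and 0.81, and for fatty acid oxidation -0.49, -0.86 and -0.09. For natriuretic and fetal genes they were 1.02, 1.78 and 1.34. The surface and fat list had 0.62, 0.64 and 0.73. It mixes 8 rises and 6 falls, so its median does not measure the size of a response. No test compares single hearts.

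**Figure D4:**
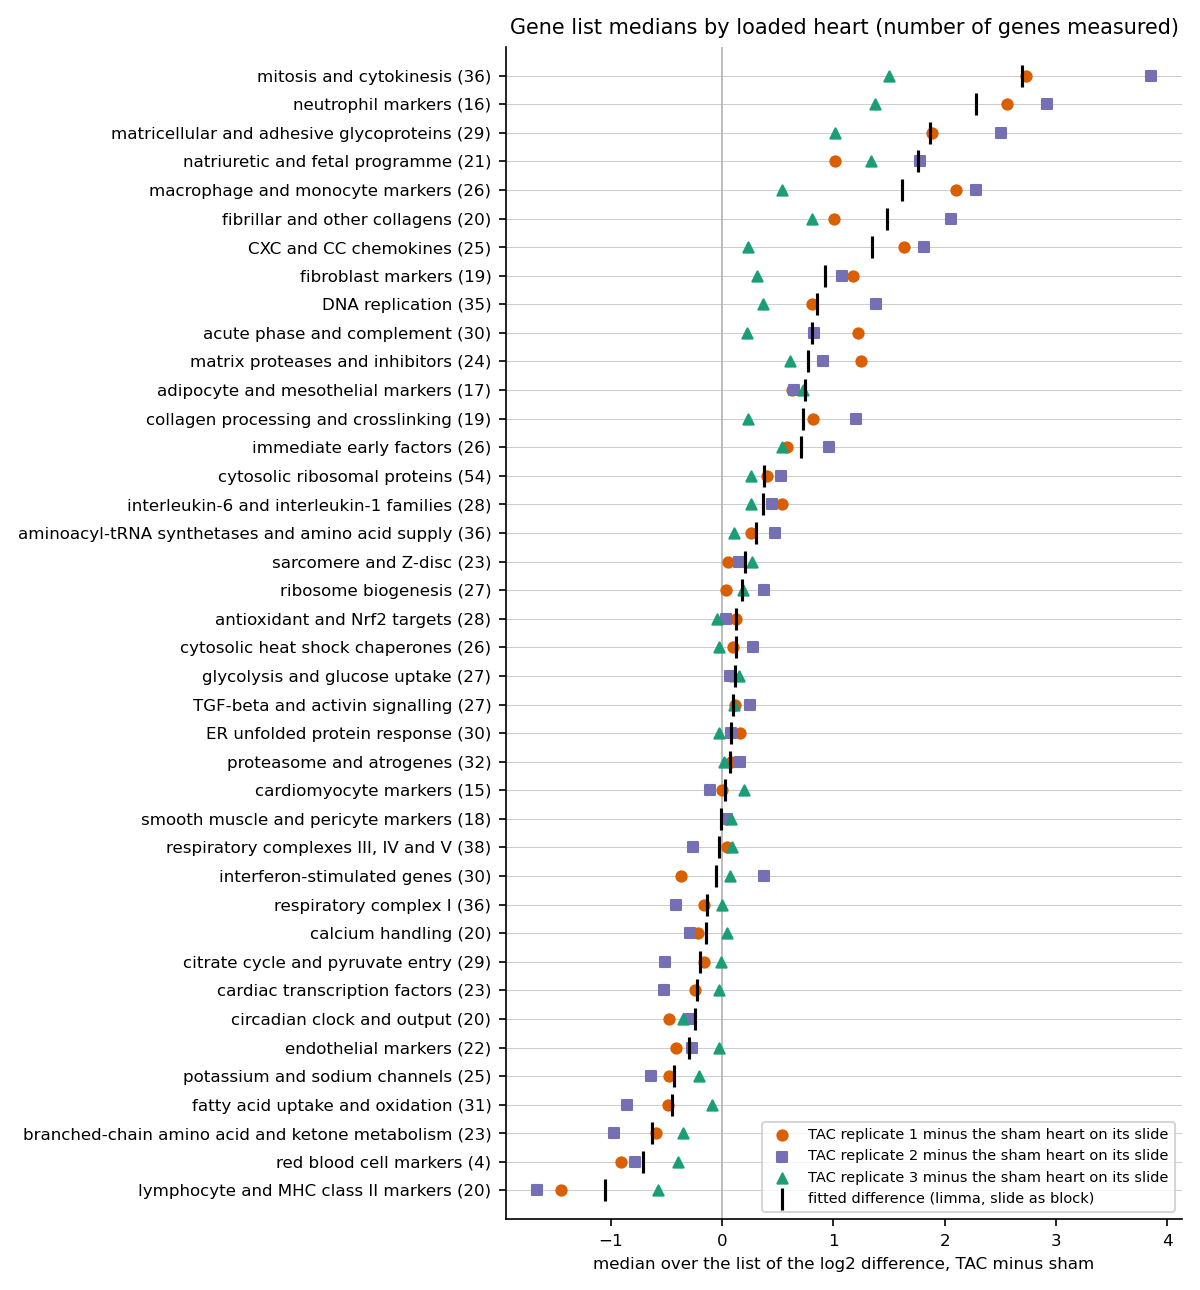
For each gene list (number of genes measured in brackets) the points give the median log2 difference of TAC replicates 1, 2 and 3 from the sham heart on their slide, and the black bar the median of the fitted difference. In mitosis, matricellular, macrophage and neutrophil lists TAC replicate 3 (green triangle) lies nearest to 0, while in the natriuretic and fetal list it lies between the other loaded hearts.

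Hearts filed as KO were used to ask which of these responses differed between the genotypes as filed. The difference of responses, Cre minus KO, was called for 322 of 25095 features (1.28%), 206 above and 116 below 0, and for 20 with all 15 arrays. Since the value table exchanges the genotypes, the direction of this difference is not settled. C3 rose by 1.19 ± 0.17 in hearts filed as Cre and was at -0.81 in those filed as KO, a difference of 2.00 ± 0.25 (adjusted p = 0.019). Zbp1 and Mybpc2, a myosin-binding protein of fast muscle, differed in the same way by 2.77 ± 0.43 and 2.70 ± 0.39. Ckmt1 rose by 2.30 in hearts filed as Cre against 0.39 in those filed as KO (difference 1.91 ± 0.16; adjusted p = 0.0069). Col9a2, a cartilage collagen, was at 1.37 against -0.26 (1.63 ± 0.18). The remaining genes of smallest p had little or no call in hearts filed as Cre. Aqp8, a water channel, was at 0.96 ± 0.33 (not called) against -3.54, Pipox, a peroxisomal oxidase, at 0.21 ± 0.20 against -2.73, and Sesn1, a stress-induced regulator of growth, at -0.14 ± 0.15 against -2.18. Ttc39a was at -0.35 ± 0.20 against -3.21. Slc7a11, the cystine carrier, was not well above background in any heart filed as Cre. Of the gene lists, acute phase and complement had the most members called in this difference, 4 of 30, and every other list had 0 to 2, beside 1.28% of all features.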

How the data were processed

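RNA of the ventricular apex was measured on 15 1-colour Agilent mouse arrays, 1 sample per array, from 4 groups set by title. The deposited scanner files hold, per the file headers, intensity values that Feature Extraction 10.7.3.1 had background-subtracted and detrended. Log2 values fill the deposited table of the series, made with limma per the submitters' processing notes (version not given in the sources used here), and served as an alternative. It exchanges the genotypes of the matched arrays.

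Control spots were dropped, outlier spots (58 to 97 on each of the 14 fitted arrays) were set missing and spots of 1 probe were averaged. After averaging, 42 probe values were missing in the 14 arrays. Log2 processed signal was taken minus the 75th percentile of each array. Probes well above background on at least 3 of the 14 fitted arrays were kept (31715 of 41174), and each gene was read from its brightest probe, which gave 25095 features, 14678 of them with a symbol. Symbols came from RefSeq (GRCm38.p6) through the accession given for each probe, and a probe whose accession was not found there had none. Of the probes 24844 had a symbol and 16330 had none. Of the called genes 1418 had another probe and 193 a probe of opposite sign. limma 3.58.1 in R 4.3.3 fitted 4 groups with slide as a fixed block (lmFit, eBayes, Benjamini-Hochberg adjusted p under 0.05) on 14 arrays, without KO TAC replicate 4. Plots were drawn with matplotlib 3.10.9 and tables handled with pandas 2.3.3 under Python 3.11.15. The fitting code was tested on simulated data. The files hold no mean signal, so the normexp alternative used the median signal.

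The hearts, the 40 gene lists and the rule for named genes were chosen with earlier results of these data known. The rule took the 12 largest rises and 12 largest falls among called genes above background on all 7 arrays whose groups did not overlap, and the 10 smallest p-values. It also took up to 4 called members of each list by p and 2 uncalled members by signal, 7 preset genes, and up to 8 genes by p in the difference of responses. Ankrd1, Arntl, Cdt1, Cenpf, Col1a1, Col4a3, Cthrc1, Dut, Il6, Mki67, Msln, Mybpc2, Prc1, Rpl3l, Ube2c and Uhrf1 fall outside it and were named after their values were seen. Some genes that the rule takes are not reported here. Alternatives changed the arrays, the block, the scaling, the filter, the probe rule, the variance model, the value source, the operation labels and each array in turn.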

Additional observations from a re-analysis of the deposited data

Results flagged for a closer look

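In the 4 sham hearts filed as Cre, Dixon's test at the 95% critical value set 1 heart apart from the others in 12 of the 181 named genes. Chance sets 1 heart apart in about 1 of 20 such groups. Each of these 4 hearts was on a different slide, and levels were taken without a slide correction. Whether a heart or its slide stood apart therefore cannot be told, here or in the summed levels below. Sham replicate 4 was the heart apart in 7 of the 12 genes. It read lower than the other sham hearts in Atp2a2 (6.82 against 7.27 to 7.32) and Hspa8 (4.73 against 6.22 to 6.51). It read higher in Bckdha (6.32 against at most 6.05), Slc8a1 (0.56 against 0.08 to 0.13), Cd247 (-2.71 against -3.47 to -3.37), Hp (-1.34 against -2.72 to -2.60) and Il1r2 (-6.59 against -7.81 to -7.61). Sham replicate 3 was apart in Nppa (5.54 against 6.63 to 6.79), Klf15 (3.45 against 2.86 to 2.95) and Psmd14 (3.14 against 3.31 to 3.34). Sham replicate 1 was apart in Bdh1 (4.93 against 4.43 to 4.50) and Clec4d (-3.14 against -3.89 to -3.79).

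The summed log2 level of a list set 1 sham heart apart in 4 of 40 lists. Sham replicate 4 was the highest for the sarcomere and Z-disc (11.79 against 11.68 to 11.69), the cardiac transcription factors (7.30 against 7.18 to 7.20) and the cardiomyocyte markers (11.69 against 11.63 to 11.64). Sham replicate 3 was the lowest for ribosome biogenesis (6.72 against 6.85 to 6.87).

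By limma's test of the difference of responses, the TAC response differed between hearts filed as Cre and as KO in 14 of the genes named. The log2 difference, Cre minus KO, was 4.50 for Aqp8, 2.94 for Pipox, 2.85 for Ttc39a, 2.77 for Zbp1, 2.74 for Asb15, 2.70 for Mybpc2, 2.65 for Lgals7 and 2.04 for Sesn1. It was 2.00 for C3, 1.91 for Ckmt1, 1.63 for Col9a2, 1.59 for Htra3, 0.89 for Kcnh2 and -2.62 for Slc7a11. With the genotypes of the value table each of these would change sign.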

How the results depend on the processing

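Of the 5839 called features 5838 or 5839 kept their sign in each of the fits with all 15 or only 7 arrays, with 1 array left out, with a random or no slide block, with another scaling and with another variance model. It was kept by 5828 with the replicate block in place of the slide, by 5819 with the mean over probes, by 5505 with the value table's own genotypes and by 3119 with the description field's operations.

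The count of calls was 2125 with all 15 arrays, 1 with the 7 arrays and the slide block, 2414 with the 7 arrays and no block, 3585 with 14 arrays and no slide block, 9526 with array weights, 10921 with the value table under its own genotypes and 0 under the description field's operations (219 at an unadjusted p under 0.05). Leaving out 1 array gave 1655 (TAC replicate 2) to 7084 (TAC replicate 3). The difference of responses, 322 features, was called for 20 with all 15 arrays, 34 with no slide block, 610 with slide as a random block, 701 after normexp and quantile normalization, 44 with no filter, 627 with a filter on 1 group filed as Cre, 704 with a filter on all 14 arrays, 723 with a trended variance, 654 with array weights, 565 with the value table and 0 under the description field (551 unadjusted). Leaving out 1 array gave 17 (TAC replicate 1) to 687 (TAC replicate 2). It fell to 18, 43 and 144 without KO TAC replicates 3, 2 and 1, to 40, 41, 31 and 23 without sham replicates 1 to 4, to 71, 26, 41 and 184 without KO sham replicates 1 to 4, and to 112 without TAC replicate 3.

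With the replicate number as a block in place of the slide, limma called 2234 features for TAC and 2 for the difference of responses, and with a replicate block beside the slide 1892 and 8. Same-numbered sham and TAC hearts filed as Cre had correlations of deviations from the group means of -0.33 to 0.26 (3 pairs). Those on the same slide had 0.21 to 0.64 (3 pairs). Over all groups, arrays of 1 slide had a median of 0.45 (18 pairs) and arrays of different slides -0.18 (55 pairs). With 3 pairs it cannot be told whether the numbers pair the hearts.

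Of 147 named genes called, 146 lost the call with the 7 arrays and the slide block, 44 with a replicate block beside the slide, 30 with it in place of the slide, 24 with all 15 arrays, 1 after normexp and quantile normalization, 36, 34 and 41 without sham replicate 3, TAC replicate 1 and TAC replicate 2, and 2 to 11 without any other 1 array. Under the value table's own genotypes the log2 difference turned for Aqp8 (-3.34), Bdh1 (-0.36), C3 (-0.91), Ccl8 (-0.95), Col9a2 (-0.18), Dcn (-0.63), Folr2 (-0.75), Mmp9 (1.46), Mybpc2 (-1.39), Mybpc3 (-0.39), Myh7 (-0.24), Pipox (-1.77), Timp2 (-0.64) and Zbp1 (-0.63). The mean over probes turned Bub1 to 1.37. Under the description field's operations it turned for Abcc9 (0.17), Acot1 (0.080), Ankrd1 (-0.051), Asb14 (0.31), Asb15 (0.29), Atf3 (-0.23), Cat (0.048), Ccl3 (-0.049), Ccl8 (-0.032), Cdt1 (-0.043), Ces1d (0.87), Cfd (0.16), Ckm (0.17), Cngb3 (0.42), Col5a2 (-0.020), Col8a1 (-0.13), Cpt2 (0.039), Dut (0.057), Egr2 (-0.0092), Flnc (-0.076), Fstl3 (-0.18), Gstt1 (0.014), Hk1 (-0.084), Il6 (-1.11), Kcnip2 (0.14), Klf15 (0.042), Lgals4 (0.46), Mki67 (-0.055), Mrgprh (0.20), Mt2 (-0.14), Mybpc2 (-0.10), Myh7 (-0.11), Nppa (-0.0045), Pcolce (-0.031), Pfkp (-0.011), Phgdh (-0.24), Phkg1 (0.15), Pln (0.21), Postn (-0.0072), Psat1 (-0.11), Psmd14 (-0.066), Rpl12 (-0.0017), Rpl3l (0.45), Sdha (0.11), Sprr1a (-0.56), Synpo2l (-0.074), Tbc1d10c (0.13), Tbx20 (-0.014), Tbx5 (0.15), Ucp3 (0.35) and Uhrf1 (-0.018). For these changes of sign the cause was not tested. Precision is limited by 3 loaded and 4 sham hearts and by 7 residual degrees of freedom, and 144 rises and 160 falls rest on a bound since 1 group was not well above background on any array.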
